A study of Homo sapiens with 12 samples.

Results

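The alpha-arrestin gene TXNIP, 4 of its relatives (ARRDC1, ARRDC2, ARRDC3 and ARRDC4), the glucose-sensing transcription factor MondoA (gene MLXIP), its partner MLX and thioredoxin (TXN) were followed by RNA-seq in prostate cancer cells treated with inhibitors of histone demethylases. The 8 genes were picked by name from the 60675 listed, after TXNIP had been seen to be nearly lost with TCE-5002 in C4-2 cells. All 8 passed the filter on low counts in every fit, and 20157 of the listed genes entered at least one fit. C4-2 is a castration-resistant derivative of the androgen-dependent line LNCaP. Every one of the 12 cultures was kept in R1881, a synthetic androgen, at 1 nM for 72 h, and the groups, of 2 libraries each, were R1881 with vehicle alone, with namoline at 50 µM, with TCE-5002, and with both inhibitors (the combination) in C4-2, and R1881 alone and the combination in cells labelled LNCaP. Namoline inhibits KDM1A (LSD1), and TCE-5002 was used as an inhibitor of KDM7A that also acts on PHF8 and KDM2A. The labels put TCE-5002 at 100 µM, whereas a lower dose is given in the methods of the study. The 2 libraries of a group are biological replicates of the same line by the study's methods.

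Alpha-arrestins are adaptor proteins that bring ubiquitin ligases of the NEDD4 family to membrane proteins and so promote their uptake and breakdown. TXNIP binds reduced thioredoxin, and it limits glucose entry by promoting the internalisation of glucose transporters. Its transcription is driven by MondoA with MLX, which bind carbohydrate response elements when glucose phosphates accumulate in the cell, and ARRDC4 is a second well-known target of the same pair. Thioredoxin reduces protein disulphides and is itself kept reduced by thioredoxin reductase.

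Because MondoA and MLX are known to bind paired E-box-like motifs, the 250 bases before the RefSeq start sites of TXNIP and ARRDC4 (GRCh38.p14) are shown here. They lie at chr1:145996580-145996829 on the minus strand and at chr15:97960453-97960702 on the plus strand. Capitals mark the paired motif in TXNIP and the E-box in ARRDC4, and both sequences read 5′ to 3′ on the gene's strand.
TXNIP: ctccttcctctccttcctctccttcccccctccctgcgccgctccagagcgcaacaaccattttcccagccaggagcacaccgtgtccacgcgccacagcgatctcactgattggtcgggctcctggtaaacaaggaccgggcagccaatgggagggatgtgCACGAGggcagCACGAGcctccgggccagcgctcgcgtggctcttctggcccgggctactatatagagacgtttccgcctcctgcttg
ARRDC4: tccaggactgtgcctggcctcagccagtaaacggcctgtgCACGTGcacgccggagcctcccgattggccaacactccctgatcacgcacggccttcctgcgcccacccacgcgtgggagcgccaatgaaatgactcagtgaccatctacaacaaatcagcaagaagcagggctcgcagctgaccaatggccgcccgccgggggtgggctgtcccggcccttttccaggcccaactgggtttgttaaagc
The paired motif, CACGNG followed by 5 bases of any kind and a second CACGNG, was found 88 to 72 bases before the TXNIP start, as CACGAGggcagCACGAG. On either strand it was present in 16 of 35116 promoter windows of the same length (0.0456%). Pairs with the second motif inverted were not searched for. The ARRDC4 window held no pair of the searched form. It held CACGTG 210 to 205 bases before its start, a motif present in 6.34% of windows. MLX also held CACGTG, 50 to 45 bases before its start, and the windows of TXN, ARRDC1, ARRDC2, ARRDC3 and MLXIP did not. The single motif CACGNG, which includes CACGTG, was found in 26.7% of windows. Among the members it lay before TXNIP, ARRDC4, ARRDC2, MLX, TXN and the second RefSeq start of ARRDC3, and not before ARRDC1 or MLXIP. TXNIP held CCAAT in 2 places and ARRDC4 in 3, on either strand, against 32% of windows with at least 1. ARRDC1, MLXIP, MLX, the first ARRDC3 start and the second ARRDC2 start each had 1 as well, and TXN had none. The forkhead core GTAAACA, found in 2.98% of windows, lay 124 to 118 bases before the TXNIP start, and in the opposite orientation 29 to 23 bases before the second RefSeq start of ARRDC3. All TXNIP matches lay before the start shown above, and the window before its second RefSeq start held none of these motifs. These matches describe the letters only, since no binding was measured.

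Some features of the libraries bear on the values below. Total counts ran from 14791602 to 20690819 per library. In the file of the library labelled LNCaP combination replicate 1, the column of counts carries the name of a namoline library without TCE-5002. Member changes with the combination in this line are therefore also given without it, whereas the gene lists are given only with it. The cells labelled LNCaP differed from C4-2 in prostate luminal markers, with 11 of 12 lower and a summed level under R1881 of 940 to 1014 CPM (counts scaled to library size with TMM factors) against 3989 to 4156 CPM. Their EPCAM level was 3.75 CPM against 139 CPM in C4-2, and their VIM level was 686 CPM against 2.45 CPM, while COL1A1, of the same mesenchymal list, was 4.44 CPM against 50.1 CPM. The summed mesenchymal list was 795 to 890 CPM in the LNCaP-labelled libraries with R1881 and 79.7 to 81.4 CPM in C4-2, with LUM and DCN at or near 0, while the basal markers KRT5, KRT14 and TP63 summed to at most 0.414 CPM in any library. These cells are therefore called LNCaP-labelled. Luminal markers also moved with treatment in C4-2, from 2610 to 2616 CPM with the combination to 6072 to 6150 CPM with TCE-5002, and their part in the results below was not tested. Bulk RNA cannot tell fewer cells expressing a gene from less RNA per cell.

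TXNIP (ENSG00000265972, chromosome 1, 145992435 to 145996600, minus strand) was among the most abundant transcripts of C4-2 cells under R1881. It measured 778 and 731 CPM in the 2 libraries with R1881 alone, ranking 92 and 98 among the genes with a count. It measured 328 and 287 CPM with namoline, 102 and 98.7 CPM with the combination, and 4.35 and 4.34 CPM with TCE-5002. The level with the combination lay between those of the single treatments. The mean with TCE-5002 was 4.34 ± 0.00833 CPM (SD, n = 2), or 0.576% of the mean with R1881 alone (755 ± 32.7 CPM), a 174-fold lower level read from 84 and 81 counts. Of 17702 genes tested, 1 had a lower log2 fold change with TCE-5002 than TXNIP, whose value was -7.44. This is the contrast that led to the choice of the gene, and it is given with no test. The rank of TXNIP fell to 11300 and 11490 in the TCE-5002 libraries. The 2 C4-2 libraries with R1881 alone are also part of that contrast. Tests of TXNIP that use them are therefore not independent of the choice.

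In the LNCaP-labelled cells TXNIP was low before any inhibitor, at 8.19 and 8.51 CPM with R1881 alone and 6.06 and 5.53 CPM with the combination. Across all 6 groups the means ran, from the highest, C4-2 R1881, namoline, combination, LNCaP-labelled R1881, LNCaP-labelled combination and C4-2 TCE-5002. The C4-2 R1881 and TCE-5002 levels in this order entered the choice of TXNIP.

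**Figure D1:**
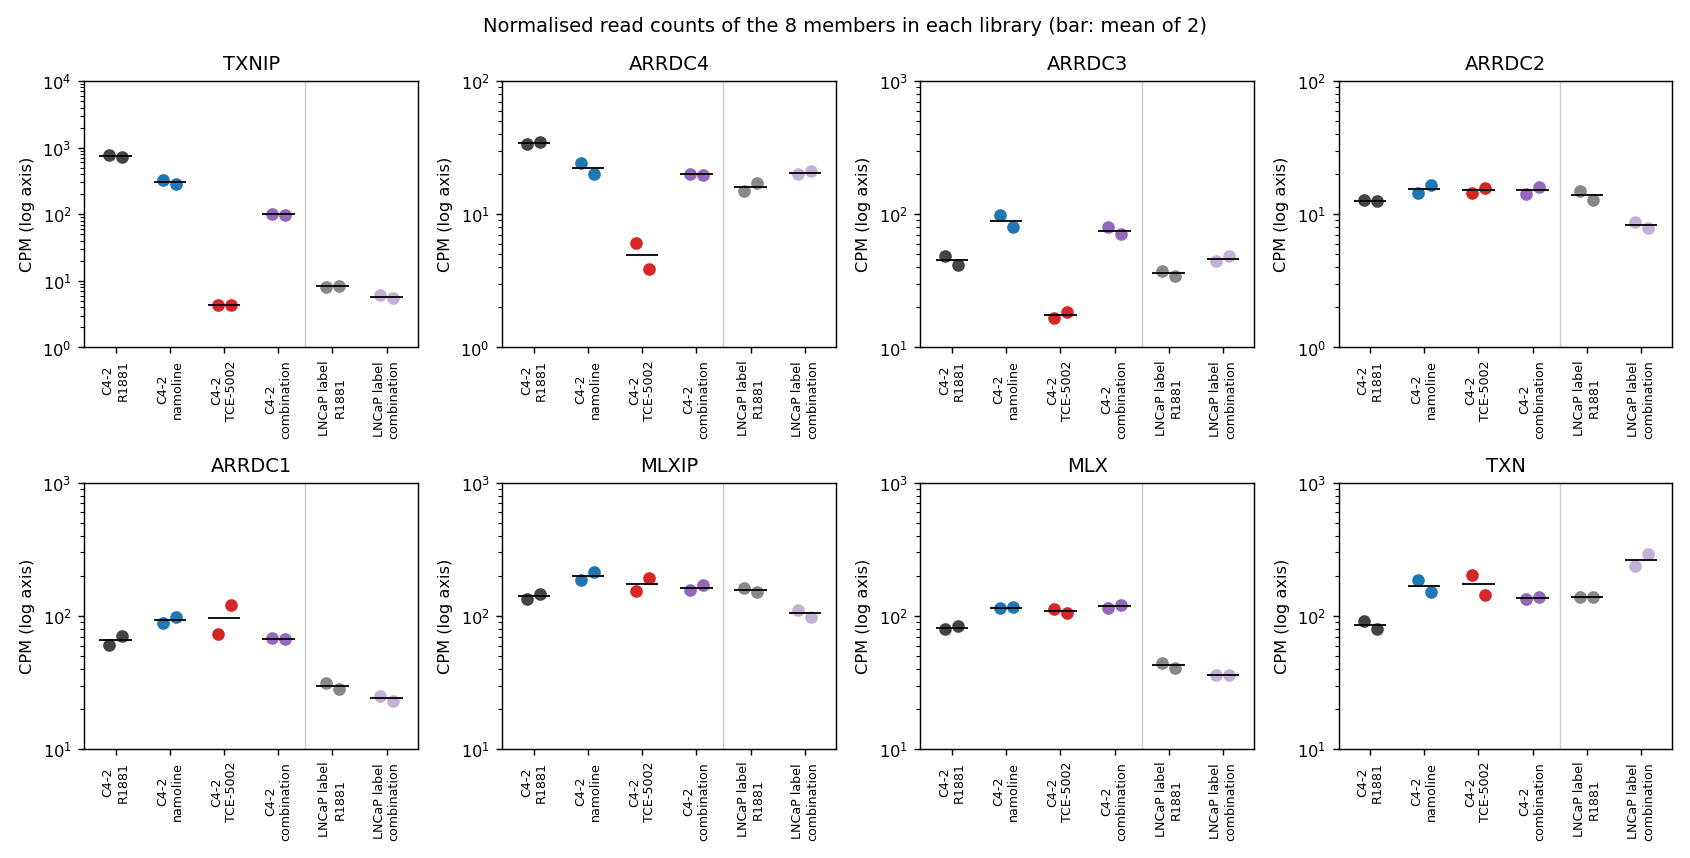
Level of each of the 8 genes in CPM on a log axis, with 1 point per library, a bar for the mean of 2 libraries, and a vertical line between C4-2 and LNCaP-labelled groups. TXNIP falls from 778 and 731 CPM with R1881 to 4.35 and 4.34 CPM with TCE-5002 in C4-2, while MLXIP stays between 134 and 213 CPM in the C4-2 libraries.

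ARRDC4 (ENSG00000140450, chromosome 15, 97960698 to 97973838, plus strand), the other arrestin known as a MondoA target, had group means ordered like those of TXNIP in C4-2. Its levels were 33.7 and 35.1 CPM with R1881 alone, 24.3 and 19.9 CPM with namoline, 6.06 and 3.91 CPM with TCE-5002 and 20.0 and 19.8 CPM with the combination. The namoline and combination libraries overlapped, and both TCE-5002 libraries lay below all others. In the LNCaP-labelled cells ARRDC4 went the other way, from 14.9 and 17.1 CPM with R1881 to 19.9 and 21.1 CPM with the combination.

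ARRDC3 (ENSG00000113369, chromosome 5, 91368724 to 91383359, minus strand) is an alpha-arrestin known for promoting the turnover of beta-adrenergic receptors and of integrin beta 4. It measured 48.5 and 41.4 CPM with R1881 alone in C4-2. The level was higher with namoline, at 98.3 and 80.3 CPM, lower with TCE-5002, at 16.7 and 18.5 CPM, and again higher with the combination, at 80.5 and 70.6 CPM. The 2 single treatments thus lay on opposite sides of R1881 alone, and the combination lay on the side of namoline. LNCaP-labelled cells held 37.8 and 34.3 CPM with R1881 and 44.2 and 48.4 CPM with the combination.

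ARRDC1 (ENSG00000197070, chromosome 9, 137605654 to 137615360, plus strand), known for driving the budding of vesicles at the plasma membrane, varied most between the TCE-5002 libraries, at 73.5 and 120 CPM. It measured 60.1 and 71.2 CPM with R1881, 87.9 and 98.1 CPM with namoline and 68.3 and 66.8 CPM with the combination in C4-2, and 31.4 and 28.5 CPM with R1881 and 25.0 and 23.1 CPM with the combination in LNCaP-labelled cells. ARRDC2 (ENSG00000105643, chromosome 19, 18001132 to 18014102, plus strand) kept a narrow range in C4-2, from 12.5 to 16.5 CPM over the 8 libraries. In LNCaP-labelled cells it was 15.1 and 12.7 CPM with R1881 and 8.78 and 7.91 CPM with the combination.

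The regulators did not follow TXNIP. MLXIP (ENSG00000175727, chromosome 12, 122078722 to 122147347, plus strand), which encodes MondoA, was measured at 134 and 147 CPM with R1881, 186 and 213 CPM with namoline, 154 and 192 CPM with TCE-5002 and 156 and 169 CPM with the combination in C4-2. Every C4-2 library with an inhibitor thus lay above both with R1881 alone. In LNCaP-labelled cells MLXIP measured 163 and 150 CPM with R1881, close to the level in C4-2, and 112 and 98.1 CPM with the combination.

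MLX (ENSG00000108788, chromosome 17, 42567068 to 42573239, plus strand), the partner that MondoA needs to bind DNA, rested at 79.5 and 83.7 CPM with R1881 in C4-2 and between 105 and 122 CPM in the 6 libraries with an inhibitor. It was lower in LNCaP-labelled cells, at 44.3 and 40.8 CPM with R1881 and 35.8 and 36.3 CPM with the combination. MLX shares 770 exonic bases (18.1% of its length) with PSMC3IP on the opposite strand, and the counting stated no strand option, so that reads in the shared stretch cannot be assigned. The overlaps of ARRDC1, ARRDC2 and ARRDC3 with antisense genes covered 29, 442 and 145 bases.

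TXN (ENSG00000136810, chromosome 9, 110243811 to 110256640, minus strand), the protein that TXNIP binds, was lowest where TXNIP was highest in C4-2, at 90.9 and 79.2 CPM with R1881. It measured 186 and 152 CPM with namoline, 205 and 145 CPM with TCE-5002 and 135 and 140 CPM with the combination. The LNCaP-labelled libraries held 138 CPM each with R1881 and 237 and 290 CPM with the combination.

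Per deposited gene length, TXNIP made up most of the alpha-arrestin RNA of C4-2 under R1881. FPKM is here CPM, from TMM-scaled totals, divided by the deposited gene length in kilobases. That length covers all listed exons of a gene rather than a single transcript, so shares and ratios between genes are approximate. In FPKM TXNIP held 84.0% and 85.4% of the summed level of the 5 alpha-arrestin genes with R1881, 61.1% and 63.5% with namoline, 40.1% and 40.4% with the combination and 2.94% and 4.22% with TCE-5002. The sum itself went from 251 and 240 FPKM with R1881 to 28.4 and 40.7 FPKM with TCE-5002, of which ARRDC1 held 67.6% and 77.1%. In LNCaP-labelled cells TXNIP held 9.02% and 9.90% with R1881. The ratio of TXN to TXNIP, both in FPKM, was 0.371 and 0.344 with R1881 in C4-2, 1.80 and 1.68 with namoline, 4.19 and 4.50 with the combination and 149 and 106 with TCE-5002. The bars of this pool by library show the loss of the TXNIP share against smaller moves of the other members.

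**Figure D2:**
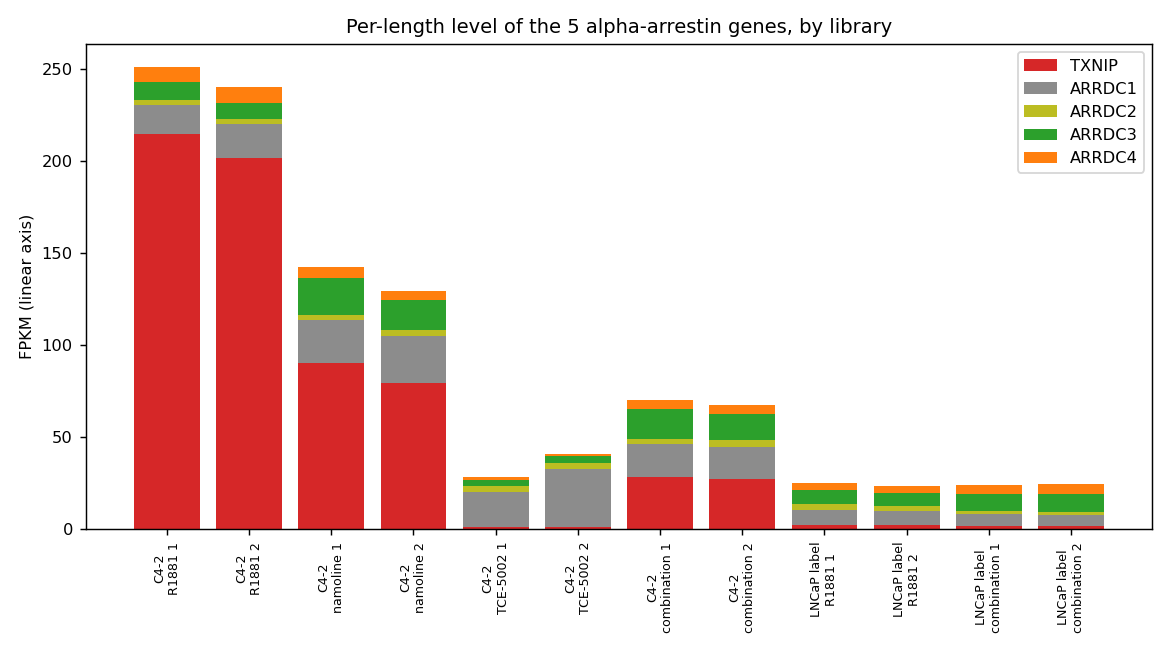
Summed FPKM (linear axis) of the 5 alpha-arrestin genes in each of the 12 libraries, stacked by gene. TXNIP fills 84.0% to 85.4% of the bar in C4-2 with R1881 and 2.94% to 4.22% with TCE-5002.

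Namoline lowered both known MondoA targets among the arrestins and raised ARRDC3, TXN, MLXIP and MLX in C4-2. In edgeR's quasi-likelihood test with Benjamini-Hochberg adjustment over 17702 genes, 7 of the 8 members passed an adjusted p of 0.05, against 35% of all genes, with 5 higher and 2 lower, against 18.7% and 16.3%. TXNIP fell by 1.31 on the log2 scale (SE 0.11, adjusted p = 9.20e-07) and was the only member changed 2-fold or more, against 12.1% of all genes. Its R1881 libraries also entered the choice of TXNIP, so this test is not independent of that choice. ARRDC3 rose by 0.97 (adjusted p = 9.83e-05), TXN by 0.98 (adjusted p = 0.000243), MLX by 0.49 (adjusted p = 0.00251), MLXIP by 0.49 (adjusted p = 0.00773) and ARRDC1 by 0.49 (adjusted p = 0.0432), while ARRDC4 fell by 0.65 (adjusted p = 0.00741). ARRDC2 was 0.28 higher, with a 95% interval of -0.04 to 0.61 (adjusted p = 0.169). The median log2 fold change was 0.49 over the members and -0.0043 over all genes.

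Several of the smaller namoline calls were lost when 1 library was left out. Such a fit has 1 library in a group, so a lost call need not mean a changed effect. ARRDC1 lost its call without either R1881 library, either namoline library or either combination library (adjusted p from 0.0580 to 0.264). ARRDC4 lost it without namoline replicate 2 (-0.53, adjusted p = 0.105), MLXIP without R1881 replicate 1 (0.43, adjusted p = 0.100) or namoline replicate 2 (0.38, adjusted p = 0.116), and MLX without R1881 replicate 1 (0.46, adjusted p = 0.0548).

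The combination lowered TXNIP further than namoline did and less than TCE-5002 did. Against R1881 alone, with the same 2 control libraries as for namoline, TXNIP fell by 2.93 (SE 0.12, adjusted p = 7.43e-10), a 7.65-fold decrease. Those controls also entered the choice of TXNIP, so this test is not independent of it. In all 5 of 8 members passed the test, against 50.3% of all genes (24.8% higher and 25.6% lower). ARRDC3 (0.72, adjusted p = 0.000622), TXN (0.66, adjusted p = 0.00253) and MLX (0.51, adjusted p = 0.00112) rose and ARRDC4 (-0.81, adjusted p = 0.00108) and TXNIP fell. Only TXNIP passed 2-fold, against 21.7% of all genes. ARRDC1 (0.02, adjusted p = 0.939), MLXIP (0.19, adjusted p = 0.233) and ARRDC2 (0.24, adjusted p = 0.210) did not pass.

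Adding TCE-5002 on top of namoline lowered TXNIP again, between 2 groups whose levels did not enter the choice of the gene. The spread behind the test came from all 8 C4-2 libraries, including those of the choice, so the test is not fully independent of it. TXNIP fell from 328 and 287 CPM to 102 and 98.7 CPM, a log2 change of -1.62 (SE 0.11, adjusted p = 5.02e-08). ARRDC1 was the other of 2 members that passed, against 55.9% of all genes, and it fell by 0.47 (adjusted p = 0.0341). The ARRDC1 call was lost without either namoline or either combination library (adjusted p from 0.0624 to 0.180). TXNIP was the member past 2-fold, where 27.5% of all genes were. ARRDC4, which was low with TCE-5002 alone, differed by -0.16 between the combination and namoline, with an interval of -0.53 to 0.20 (adjusted p = 0.442). MLXIP (-0.30, adjusted p = 0.0532), TXN (-0.31, adjusted p = 0.0977) and ARRDC3 (-0.25, adjusted p = 0.129) did not pass with all 8 libraries. Without TCE-5002 replicate 1 or 2, whose spread enters the fit, MLXIP passed (adjusted p = 0.00541 and 0.00261) as did TXN (adjusted p = 0.0121 and 0.00575), and ARRDC3 passed without replicate 2 (adjusted p = 0.0348).

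Seen from TCE-5002 alone, 3 arrestins were higher when namoline was added. ARRDC3 rose from 16.7 and 18.5 CPM to 80.5 and 70.6 CPM, by 2.08 on the log2 scale (SE 0.15, adjusted p = 5.42e-08), and ARRDC4 rose from 6.06 and 3.91 CPM to 20.0 and 19.8 CPM, by 1.97 (SE 0.19, adjusted p = 1.03e-06). TXNIP, 4.50 higher on the same scale, is given with no test because its TCE-5002 level was used to choose it. The background was 55.1% of genes called in either direction and 26.1% with a 2-fold change. ARRDC1 fell by 0.54 (adjusted p = 0.0168), but by 0.16 without TCE-5002 replicate 2 (adjusted p = 0.231), and its call was also lost without either combination library (adjusted p = 0.0665 and 0.0887). TXN (-0.37, adjusted p = 0.0514) passed without TCE-5002 replicate 2 (-0.61, adjusted p = 8.81e-05), and MLXIP (-0.11, adjusted p = 0.473) passed without TCE-5002 replicate 1 (-0.26, adjusted p = 0.0345). ARRDC2 and MLX differed by -0.03 and 0.09.

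With TCE-5002 against R1881, described with no test, ARRDC4 was 2.78 lower, ARRDC3 1.35 lower and TXN 1.04 higher on the log2 scale, and ARRDC1, MLX, MLXIP and ARRDC2 were 0.56, 0.42, 0.30 and 0.27 higher. ARRDC1 was 0.87 higher without TCE-5002 replicate 1 and 0.18 higher without replicate 2, MLXIP 0.44 and 0.14, TXN 0.76 and 1.27, and ARRDC4 3.14 and 2.49 lower. The combination minus the sum of both single effects was 5.81 for TXNIP, 2.62 for ARRDC4 and 1.10 for ARRDC3, and -1.35 for TXN, -1.03 for ARRDC1, -0.60 for MLXIP, -0.40 for MLX and -0.31 for ARRDC2. Without TCE-5002 replicate 1 or replicate 2 this value was -1.32 or -0.66 for ARRDC1 and -1.05 or -1.59 for TXN. For TXNIP, ARRDC4 and ARRDC3 the combination was thus higher than the sum of the single log2 changes, and for the other 5 members it was lower.

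**Figure D3:**
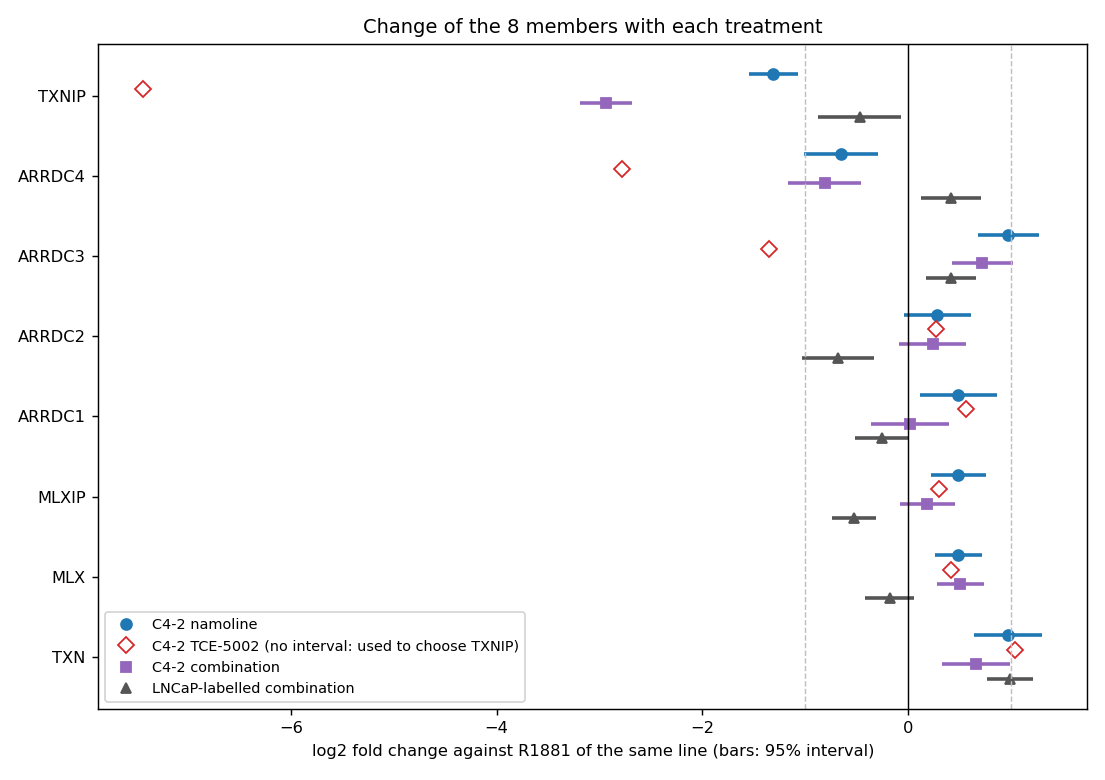
Log2 fold change of each gene against R1881 alone of the same cells (horizontal axis), with 95% intervals for the tested comparisons and open symbols without interval for TCE-5002, and dashed lines at 2-fold. TXNIP stands at -1.31 with namoline, -2.93 with the C4-2 combination and -0.47 with the LNCaP-labelled combination, while TXN lies to the right of 0 in each.

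In LNCaP-labelled cells all 8 members moved by less than 2-fold with the combination, and TXN changed most. TXN rose by 0.99 on the log2 scale (SE 0.11, adjusted p = 2.69e-09). ARRDC3 (0.42, adjusted p = 0.00315) and ARRDC4 (0.42, adjusted p = 0.0140) rose, and ARRDC2 (-0.68, adjusted p = 0.00114), MLXIP (-0.52, adjusted p = 7.92e-05) and TXNIP (-0.47, SE 0.20, adjusted p = 0.0443) fell. In all 6 of 8 members passed, against 56.2% of all genes (28% higher and 28.2% lower), each by less than 2-fold, a size that 18.7% of all genes passed. ARRDC1 (-0.26, adjusted p = 0.0906) and MLX (-0.18, adjusted p = 0.197) did not pass, and stood at -0.32 and -0.17 without combination replicate 1. Without combination replicate 1, the library with the conflicting name, TXN stood at 1.13, TXNIP at -0.54, ARRDC2 at -0.76, MLXIP at -0.62, ARRDC3 at 0.48 and ARRDC4 at 0.45, and each kept its call. The TXNIP call was lost without R1881 replicate 1 (-0.51, adjusted p = 0.104), R1881 replicate 2 (-0.45, adjusted p = 0.156) or combination replicate 2 (-0.41, adjusted p = 0.145), and with DESeq2 (adjusted p = 0.126). ARRDC3 lost its call without R1881 replicate 2 (0.35, adjusted p = 0.0945) and ARRDC4 without R1881 replicate 1 (0.31, adjusted p = 0.201).

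The combination effect on TXNIP differed between the lines. The difference in its log2 change, C4-2 minus LNCaP-labelled cells, was -2.51 (SE 0.16, adjusted p = 2.32e-11), and that of ARRDC4 was -1.28 (adjusted p = 1.07e-06). The TXNIP test uses the C4-2 libraries with R1881 alone, which also entered the choice of the gene. For ARRDC2 (0.86, adjusted p = 0.00134), MLXIP (0.66, adjusted p = 0.000115) and MLX (0.64, adjusted p = 0.000195) the change was higher in C4-2. The difference for TXN (-0.38, adjusted p = 0.0249) was lost without any one of 6 of the 8 libraries, all but LNCaP-labelled combination replicate 1 and C4-2 R1881 replicate 2 (-0.23 to -0.39, adjusted p from 0.0549 to 0.183). ARRDC3 (0.25, adjusted p = 0.190) and ARRDC1 (0.23, adjusted p = 0.220) did not differ past the threshold, although ARRDC3 did without LNCaP-labelled R1881 replicate 2 (0.43, adjusted p = 0.0452). In all 3 members passed in each direction, against 47.6% of the 19763 genes tested (21.7% higher and 25.9% lower), and TXNIP and ARRDC4 were past 2-fold, as were 25.3% of genes. The line and how its libraries were prepared cannot be told apart. Without the library with the conflicting name the differences for TXNIP, ARRDC4 and TXN were -2.47, -1.34 and -0.54. Those for ARRDC2, MLXIP, MLX, ARRDC1 and ARRDC3 were 0.92, 0.73, 0.61, 0.26 and 0.17.

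With R1881 alone, TXNIP was the member that separated C4-2 from LNCaP-labelled cells most, at 6.53 on the log2 scale (SE 0.11, adjusted p = 5.79e-23), a 92.1-fold higher level. A gene chosen for its large fall from these C4-2 libraries is likely to be high in them. The size and test of this TXNIP difference are therefore not independent of the choice. ARRDC1 (1.16, adjusted p = 3.80e-10), ARRDC4 (1.13, adjusted p = 5.67e-09) and MLX (0.97, adjusted p = 7.46e-10) were also higher in C4-2, and TXN was lower (-0.67, adjusted p = 1.49e-06). ARRDC3 was 0.35 higher (adjusted p = 0.00570) but not past the threshold without LNCaP-labelled R1881 replicate 2 (0.25, adjusted p = 0.0997) or C4-2 R1881 replicate 1 (0.21, adjusted p = 0.163). MLXIP (-0.13, adjusted p = 0.189) and ARRDC2 (-0.11, adjusted p = 0.496) did not pass. The share of all genes that passed was 76.8% (50.5% with a 2-fold change), so that 6 of 8 is near the background, and 195 of 19763 genes had a larger positive value than TXNIP.

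Across the 8 C4-2 libraries, the genes most like TXNIP in log2 CPM, among 10021 genes with at least 10 CPM in 2 or more libraries, were ADAR (Pearson r = 0.987), ERC1 (0.983), ENTPD7 (0.979), ARRDC4 (0.976) and ZNF407 (0.974). Those most like ARRDC4 were ADAR (0.992), GTF2A1 (0.984), DCTN5 (0.982), APC (0.979) and TXNIP (0.976). ADAR, the editor of double-stranded RNA, went from a mean of 404 CPM with R1881 to 222 CPM with TCE-5002, a far smaller move than that of TXNIP. Of the other members ARRDC3 had r = 0.737 with TXNIP, and TXN (-0.615), ARRDC2 (-0.472), MLX (-0.453), ARRDC1 (-0.443) and MLXIP (-0.224) had negative values. The 8 points are 4 groups of 2 libraries that share their treatments, and the values are given as a description.

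Other genes known to be driven by MondoA or its relative ChREBP moved in both directions. With namoline 5 of 8 tested genes of this list rose and 1 fell, against 18.7% and 16.3% of all genes (median 0.76 over the list and -0.0043 over all genes), with FASN, the fatty acid synthase, rising 5.04-fold (log2 2.33, adjusted p = 1.00e-06) from a mean of 1305 to 6650 CPM. With the combination against R1881, 2 rose and 3 fell, all by less than 2-fold, against 24.8% and 25.6% of all genes. On top of namoline, TCE-5002 lowered 5 of the 8 by 2-fold or more, against 14.7% of all genes in that direction. FASN fell by 1.72 (adjusted p = 4.06e-06), LDHA, the lactate dehydrogenase subunit, fell 2.83-fold (adjusted p = 1.80e-07) and ACLY, which makes cytosolic acetyl-CoA, fell by 1.45 on the log2 scale (adjusted p = 1.58e-07). Lipid synthesis genes such as FASN and ACLY are also well-known targets of SREBP factors. With TCE-5002 alone, described with no test, FASN was 1.69 higher on the log2 scale, LDHA 1.09, PFKFB3 1.08, ACACA 0.80, MLXIPL 0.78, ACLY 0.51 and HK2 0.43, and KLF10 was 1.36 lower. The combination against TCE-5002 had 7 of the 8 lower, 4 of them by 2-fold or more, and 1 higher. Of all genes 55.1% passed in either direction and 26.1% with a 2-fold change. The median was -1.02 over the list and -0.04 over all genes. KLF10 was the higher gene (1.76, adjusted p = 7.64e-08), and LDHA was 2.06 lower (adjusted p = 1.38e-08). In LNCaP-labelled cells 2 rose and 5 fell, against 28% and 28.2% of all genes, and KLF10, a zinc finger repressor, fell by 1.08 (adjusted p = 1.06e-09).

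Of the E-box factors that compete with or join MLX and MAX, MYC was the 1 of 9 that passed with namoline, against 35% of all genes, and it rose (1.15, adjusted p = 2.61e-06). With the combination in C4-2 MYC fell by 1.04 (adjusted p = 4.15e-06), among 2 that rose and 2 that fell, a count near the 50.3% of all genes. From namoline to the combination MYC fell by 2.19 (adjusted p = 5.02e-09) and MXD1, a repressor that dimerises with MAX, rose by 1.03 (adjusted p = 3.52e-05). In LNCaP-labelled cells 2 rose and 4 fell, where 56.2% of all genes passed (28% higher and 28.2% lower). MNT, a repressor partner of MAX and MLX, fell there by 1.14 (adjusted p = 1.24e-09).

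Most of the thioredoxin system genes rose with namoline. Of 18 genes, 11 rose and 1 fell (median 0.49), against 18.7% and 16.3% of all genes, and 5 rose 2-fold or more, against 5.17% of all genes. These were RRM2 (2.87, adjusted p = 3.61e-07) and RRM1 (1.11, adjusted p = 1.58e-05), the ribonucleotide reductase subunits that thioredoxin reduces, SRXN1 (1.58, adjusted p = 0.000359) and PRDX1 (1.44, adjusted p = 1.64e-06), a sulfiredoxin and a peroxiredoxin, and TXNRD1 (1.04, adjusted p = 2.85e-05), the cytosolic thioredoxin reductase. RRM2 is also a known gene of the DNA synthesis phase. With the C4-2 combination 6 rose and 3 fell (median 0.01), where 50.3% of all genes passed, and SRXN1 (2.78, adjusted p = 1.15e-06) and TXNRD1 (1.46, adjusted p = 8.24e-07) rose 2-fold or more. From namoline to the combination RRM2 (-2.74, adjusted p = 1.63e-07), PRDX1 (-1.49, adjusted p = 3.72e-07) and TXNRD2 (-1.23, adjusted p = 3.90e-06) fell and SRXN1 rose (1.20, adjusted p = 0.000516). They were among 8 of the 18 that fell and 4 that rose, where 55.9% of all genes passed in either direction. In LNCaP-labelled cells 11 rose and 5 fell, against 28% and 28.2% of all genes, with TXNRD1 (1.11, adjusted p = 8.89e-11) and MSRB2 (1.09, adjusted p = 2.10e-07) higher and SRXN1 (-1.49, adjusted p = 5.62e-05) and NXN (-1.03, adjusted p = 1.80e-08) lower. SRXN1 was at 1.71 to 39.2 CPM in group means. PRDX1 shares 24.9% of its length with MMACHC on the other strand, and 85.0% of the SRXN1 length lies in an overlapping gene model.

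**Figure D4:**
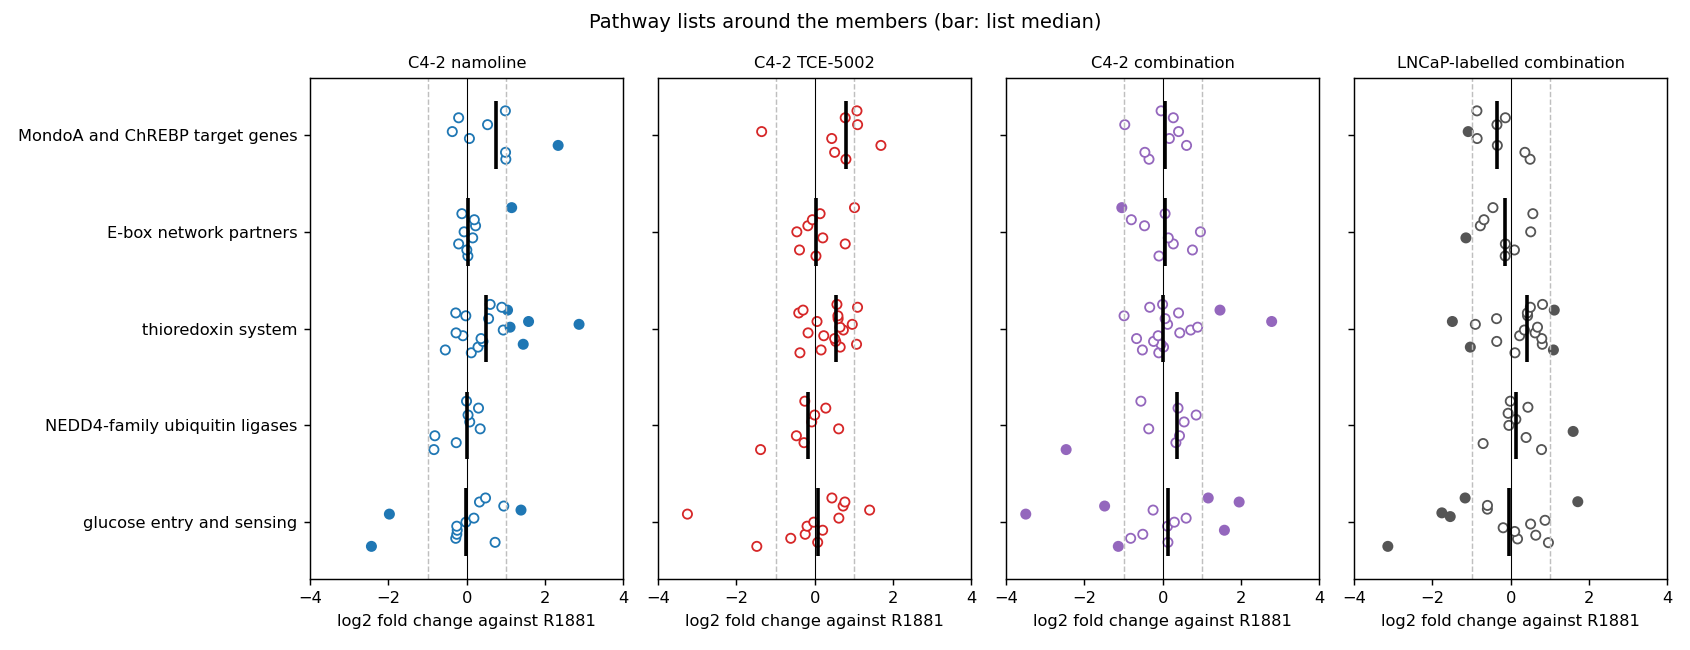
Log2 fold change against R1881 (horizontal axis) of the genes of 5 lists in 4 panels, with a bar at each list's median and filled points for a change past an adjusted p of 0.05 and 2-fold; TCE-5002 is drawn open, with no call. The thioredoxin list has its median at 0.49 with namoline and at 0.01 with the C4-2 combination.

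Of the NEDD4-family ligases, which alpha-arrestins recruit, 1 of 8 rose and 1 fell with namoline (median 0.01), against 35% of all genes. NEDD4L rose by 0.34 (adjusted p = 0.0196) and NEDD4 fell by 0.82 (adjusted p = 0.000684). With the C4-2 combination 5 rose and 3 fell, against 24.8% and 25.6% of all genes, all by less than 2-fold except HECW2 (-2.47, adjusted p = 0.00353), which was at 1.75 CPM with R1881. In LNCaP-labelled cells 3 of 9 rose and 1 fell, where 56.2% of all genes passed, and NEDD4 itself rose by 1.60 (adjusted p = 7.50e-13). It was also 1.24 higher in the C4-2 combination than with namoline (adjusted p = 6.18e-06).

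Genes of glucose entry and sensing moved in both directions. With namoline 3 of 13 rose and 2 fell, near the 35% of all genes that passed, with SLC2A12, a glucose transporter, up by 1.39 (adjusted p = 0.000263), and DDIT4, an inhibitor of mTORC1, at -2.44 (adjusted p = 4.00e-07). The transporter genes SLC2A10 and SLC2A3 were low in C4-2, at 1.07 and 1.98 CPM with R1881. With the combination 5 rose and 5 fell, where 50.3% of all genes passed, and SLC2A4 (1.95, adjusted p = 7.00e-07), PRKAB1, an AMPK subunit (1.58, adjusted p = 1.14e-07), and SLC2A8 (1.16, adjusted p = 0.000147) were the leading higher genes. SLC2A10 (-3.50, adjusted p = 0.000742), SLC2A3 (-1.48, adjusted p = 0.00268) and DDIT4 (-1.13, adjusted p = 0.000136) led the lower ones. In LNCaP-labelled cells 4 of 14 rose and 6 fell, where 56.2% of all genes passed, with SLC2A4 higher (1.71, adjusted p = 0.000223) and DDIT4 (-3.14, adjusted p = 1.64e-20), SLC2A10 (-1.76, adjusted p = 2.92e-11) and SLC2A1, the main basal glucose transporter (-1.54, adjusted p = 1.62e-13), lower. SLC2A12 shares 38.9% of its length with TBPL1 on the opposite strand, so its value is uncertain. DDIT4 shares 41.2% of its length with a gene model on the opposite strand. That model had a mean of 0.0 CPM, and reads in the shared stretch cannot be assigned.

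Of the beta-arrestins, distant relatives of TXNIP that bind activated receptors, ARRB1 rose with namoline (1.36, adjusted p = 1.94e-06) and fell with the combination (-0.79, adjusted p = 0.000206), a change of -2.14 from namoline to the combination (adjusted p = 1.53e-08). ARRB2 was 0.02 higher with namoline (adjusted p = 0.919) and rose with the combination (1.86, adjusted p = 3.73e-08), from a mean of 41.5 to 153 CPM. ARRDC5 and the visual arrestin SAG did not pass the filter on low counts.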

How the data were processed

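RNA-seq counts per gene were deposited for 12 libraries in 6 groups of 2. Per the file headers, the authors counted read pairs with featureCounts 1.5.0-p1, and the deposited counts are raw, with Ensembl 83 genes on GRCh38 and no strand option; their processing notes also name STAR, Trim Galore, cutadapt and FastQC. Symbols came from GENCODE 29 and match 56558 of 60675 identifiers. Counts were fitted with edgeR 4.0.16 (R 4.3.3; limma 3.58.1): filterByExpr, TMM, glmQLFit and glmQLFTest, with Benjamini-Hochberg adjustment over all genes in the fit. C4-2 comparisons used the 8 C4-2 libraries, the LNCaP-labelled comparison its 4 libraries, and comparisons between lines the 8 libraries with R1881 alone or the combination. A change counted as 2-fold at an absolute log2 value of 1 or more and adjusted p under 0.05. Comparisons against R1881 in C4-2 share the same 2 control libraries. CPM and FPKM were computed here from the counts. The scripts were tested on simulated data. Figures were drawn with matplotlib 3.10.9.

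The members and the 6 gene lists were chosen with earlier results of these data known. All 8 members are named whatever their values. From the lists up to 3 higher and 3 lower genes with the largest 2-fold changes are named per comparison. Not every gene that this rule covers is named. For the combination against TCE-5002 only the MondoA and ChREBP list is described. The remaining RRM1 and TXNRD1, NEDD4 and NEDD4L with namoline, ARRB1 with the combination and ARRB2 with namoline were added after their values were seen. So was the MondoA and ChREBP list with TCE-5002 alone. The 5 protein-coding genes with the highest Pearson r (log2 CPM, prior 1) were named for TXNIP and ARRDC4. Lists in comparisons between the lines were not described. A gene of the glucose list is not reported here and was left out of its counts. Promoter sequences are RefSeq's. Alternatives were RLE scaling, no filter, DESeq2 1.42.0, a replicate block, a fit on the 4 libraries compared and leaving out each library.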

Additional observations from a re-analysis of the deposited data

Results flagged for a closer look

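For 6 genes the log2 change with the combination differed between C4-2 and LNCaP-labelled cells in the edgeR quasi-likelihood test of the difference. The value, C4-2 minus LNCaP-labelled, was -2.51 for TXNIP, -1.28 for ARRDC4, -0.38 for TXN, 0.86 for ARRDC2, 0.66 for MLXIP and 0.64 for MLX. For TXNIP the C4-2 libraries with R1881 alone also entered the choice of the gene. TXNIP was lower in both treated libraries in each line, and ARRDC4 fell in C4-2 and rose in LNCaP-labelled cells. The MLX value carries the overlap with PSMC3IP. Of all 19763 genes tested, 47.6% also passed this test.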

How the results depend on the processing

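Under RLE scaling, no filter on low counts, DESeq2, the replicate block and the fit on the 4 libraries compared, the numbers of genes past the threshold stayed within 1.5 times, and no value changed direction past its threshold. The fall of TXNIP in LNCaP-labelled cells (-0.47) lost its call with no filter (-0.50, adjusted p = 0.0537), with DESeq2 (-0.47, adjusted p = 0.126) and with the replicate block (-0.47, adjusted p = 0.0578), and ran from -0.54 to -0.41 when 1 library was left out. The cause was not tested. With C4-2 TXNIP, each tested call held under all alternatives and without each library: namoline -1.43 to -1.23, combination -2.99 to -2.89 and combination against namoline -1.71 to -1.51.

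The difference for TXN between lines lost its call with RLE scaling (-0.32, adjusted p = 0.0597) and DESeq2 (-0.32, adjusted p = 0.0877). MLXIP with the C4-2 combination passed in the fit on the 4 libraries (adjusted p = 0.0235). MLXIP and TXN passed from namoline to the combination in that fit (adjusted p = 0.0110 and 0.0176), and TXN passed against TCE-5002 with no filter (adjusted p = 0.0206).

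Nothing in the labels ties libraries of the same replicate number. The correlation of the differences between replicates 1 and 2 was 0.23 for R1881 and TCE-5002, 0.12 for R1881 and namoline and 0.27 for TCE-5002 and namoline in C4-2, from -0.01 to 0.04 between the combination and the other C4-2 groups, and -0.01 in LNCaP-labelled cells, so the numbers were not taken to pair the libraries throughout. With the replicate block the calls past the threshold numbered 2181 against 2134 for namoline, 3871 against 3834 for the C4-2 combination, 4875 against 4861 for the combination against namoline and 3062 against 3293 in LNCaP-labelled cells. The block also gave MLXIP and TXN a call from namoline to the combination (adjusted p = 0.0145 and 0.0298) and TXN one against TCE-5002 (adjusted p = 0.0118). With TCE-5002 the TXNIP level rested on 84 and 81 counts, so its precision is limited by counting.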
